A study of Mus musculus with 6 samples.

Results

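The broad H3K9me3 islands are stretches of at least 20 kb that SICER, a caller for diffuse histone marks, joined from enriched windows in chromatin of proliferating C2C12 myoblasts. They were selected on that measured length alone. Of 23268 islands in the deposited list, 885 were this long. Chromosome 15 (134 of them) and the distal end of chromosome 2 (66 of them, the first starting at 168839801) were left out, which gave 685 broad islands among 21308 islands outside these stretches. C2C12 is an established mouse myoblast line, here grown with fetal calf serum, so all values come from 1 cell line. The label of the H3K9me3 library names no treatment. The series held 6 libraries, 1 per group: H3K9me3 and Setdb1 immunoprecipitations, their 2 inputs, and Setdb1 from cells treated with DMSO or Wnt3a. The H3K9me3 lists came from the first of these. The Setdb1 list does not name its library, and the study describes it as coming from its best enriched Setdb1 experiment. Whether those cells had received DMSO is not stated. With no replicate library, no difference below has a replicate check or a p-value. Intervals are exact 95% intervals (Poisson for rates, Clopper-Pearson for shares) and cover counting error only.

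Trimethylation of lysine 9 of histone H3 marks silent heterochromatin, and Setdb1 is one of the methyltransferases that place it in euchromatin. Setdb1 can be brought to targets through the corepressor Trim28 by KRAB zinc finger proteins. This large family binds DNA with tandem C2H2 fingers. For myoblasts the study considers a common mechanism of Trim28 and Setdb1 unlikely. The mark spreads from Setdb1 targets. It is known at silenced retrotransposons, imprinted control regions, clustered olfactory receptor and protocadherin genes, and the 3′ exons of the zinc finger genes themselves. Consecutive fingers are joined by a short linker, Thr-Gly-Glu-Lys followed by proline. Its 5 codons (any synonymous codons, read on both strands) are used below as a sequence mark of finger arrays that needs no gene name.

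The sequences of the strongest Setdb1 sites in broad islands, with and without a zinc finger array, are shown first. The 5 windows span 100 bases on each side of the summit on the plus strand of mm9. They lie at chr17:56633586-56633786 (intergenic, upstream of Ptprs, whose start was the nearest), chr5:144015043-144015243 (coding exon of Zfp316), chr5:144016666-144016866 (within 1 kb of an annotated Zfp316 start), chr4:151877215-151877415 (within 1 kb of an annotated Nphp4 start) and chr7:30937162-30937362 (within 1 kb of the Gm10988 start, in the island of Zfp146 and Zfp382). The last stretch, chr11:121719789-121720088 in the pseudogene Gm12586, is from the broad island richest in linker codons. Capitals mark linker codons where a window held any (the second Zfp316 site, the Zfp146 island and Gm12586) and CpG dinucleotides elsewhere.
Ptprs side: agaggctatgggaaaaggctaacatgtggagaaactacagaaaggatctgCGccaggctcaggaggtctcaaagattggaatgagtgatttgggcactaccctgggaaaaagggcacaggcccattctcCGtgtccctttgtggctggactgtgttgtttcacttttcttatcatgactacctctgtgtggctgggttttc
Zfp316, first: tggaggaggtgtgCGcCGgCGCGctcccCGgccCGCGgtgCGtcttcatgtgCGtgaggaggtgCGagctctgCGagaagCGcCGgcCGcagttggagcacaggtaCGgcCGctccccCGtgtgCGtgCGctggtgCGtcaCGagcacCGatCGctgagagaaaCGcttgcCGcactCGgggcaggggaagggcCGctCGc
Zfp316, second: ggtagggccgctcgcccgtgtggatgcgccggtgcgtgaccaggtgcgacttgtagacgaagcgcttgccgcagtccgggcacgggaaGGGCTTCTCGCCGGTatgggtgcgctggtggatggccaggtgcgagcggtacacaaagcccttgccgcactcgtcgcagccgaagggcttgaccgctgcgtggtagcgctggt
Nphp4: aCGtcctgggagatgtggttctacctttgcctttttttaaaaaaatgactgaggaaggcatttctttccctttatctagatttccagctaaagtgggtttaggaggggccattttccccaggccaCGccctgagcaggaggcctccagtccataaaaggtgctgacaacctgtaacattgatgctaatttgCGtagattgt
Zfp146 island: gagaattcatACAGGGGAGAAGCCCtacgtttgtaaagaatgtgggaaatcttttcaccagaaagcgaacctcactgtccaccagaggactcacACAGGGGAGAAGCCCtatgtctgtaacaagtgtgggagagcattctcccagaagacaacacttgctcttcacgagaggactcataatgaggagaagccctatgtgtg
Gm12586: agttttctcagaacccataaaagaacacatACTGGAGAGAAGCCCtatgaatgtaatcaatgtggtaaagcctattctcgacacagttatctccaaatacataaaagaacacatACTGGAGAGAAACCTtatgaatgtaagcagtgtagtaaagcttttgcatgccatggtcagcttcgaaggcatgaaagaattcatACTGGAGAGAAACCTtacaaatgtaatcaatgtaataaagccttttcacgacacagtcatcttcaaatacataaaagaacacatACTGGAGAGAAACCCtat
The first Zfp316 window held 28 CpG dinucleotides at 71.6% GC and the second 24 at 68.2%, with 1 linker on the minus strand. The Ptprs side window held 2 and the Nphp4 window 3, so a high CpG content was not shared by the strongest sites. The Zfp146 island window held 2 linkers and the Gm12586 stretch 4. Over the whole Gm12586 island there were 20 linkers within 2861 bp, and 12 of the 19 steps between neighbours measured 84 bp.

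Broad islands made up 3.21% of the islands and 16.7% of their bases. They came to 25.9 Mb, or 1.06% of the sequenced genome outside the left-out stretches (mm9, 2443 Mb). Their lengths ran from 20.0 to 373.6 kb with a median of 27.6 kb, and 395 measured under 30 kb, 169 from 30 to under 50 kb, 93 from 50 to under 100 kb, and 28 at least 100 kb. The limit cut a continuous range. There were 17 islands of 19.8 kb, with a median of 5 MACS peaks, and 18 of 20.0 kb, with a median of 4.

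Of the 10 longest islands, which ended at 145.0 kb, 7 overlapped a protein-coding gene. The longest, 373.6 kb on chromosome 4, covered the whole of Prdm16 (chr4:153690234-154010982), which encodes a PR-domain zinc finger regulator known for brown fat identity. It held 261 MACS peaks, of which the strongest reached 12.4-fold over input, and no Setdb1 site. Islands of 235.8 and 146.0 kb lay in Spock1 on chromosome 13, which encodes a testican proteoglycan, and 5 islands together covered 98.8% of that gene. Further islands of this rank lay in Cdh13 (172.4 kb), the gene of T-cadherin, in Ajap1 (162.8 kb, the whole gene), a junction protein gene, and in Sdk2 (159.4 kb), a sidekick adhesion molecule gene. The island of 145.0 kb covered all of Axin2, the feedback inhibitor of Wnt signalling. The other 3, of 214.8, 178.4 and 160.6 kb, held no protein-coding gene. Of these 10 islands only that of Sdk2 had a Setdb1 site, at 8.72-fold, while 3.07% of all broad islands had one.

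The broad islands were grouped along the chromosomes. With neighbours less than 100 kb apart counted as a run, 109 runs of 2 or more held 538 of the 685 islands (78.5%). The largest, on chromosome 5 from 127534201 to 129379800, had 26 islands over 76.1% of 1846 kb, across Tmem132d, Tmem132c, Rimbp2, Glt1d1, Fzd10 and Piwil1. The run on chromosome 4 from 151817001 to 153302200 had 13 islands over 97.6% of its 1485 kb, the highest share among runs of at least 5, and 1064 MACS peaks, and it included Nphp4, Kcnab2 and Ajap1. The next, 19 islands on chromosome 12 and 12 on distal chromosome 7, met no protein-coding gene. The fifth by span (chromosome 2, 161849401 to 162638600) lay in and beside Ptprt, a receptor phosphatase gene, with 14 islands. The 42 runs of at least 5 islands held 355 islands, 15.8 Mb and 2 of the 27 Setdb1 sites in broad islands.

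**Figure D1:**
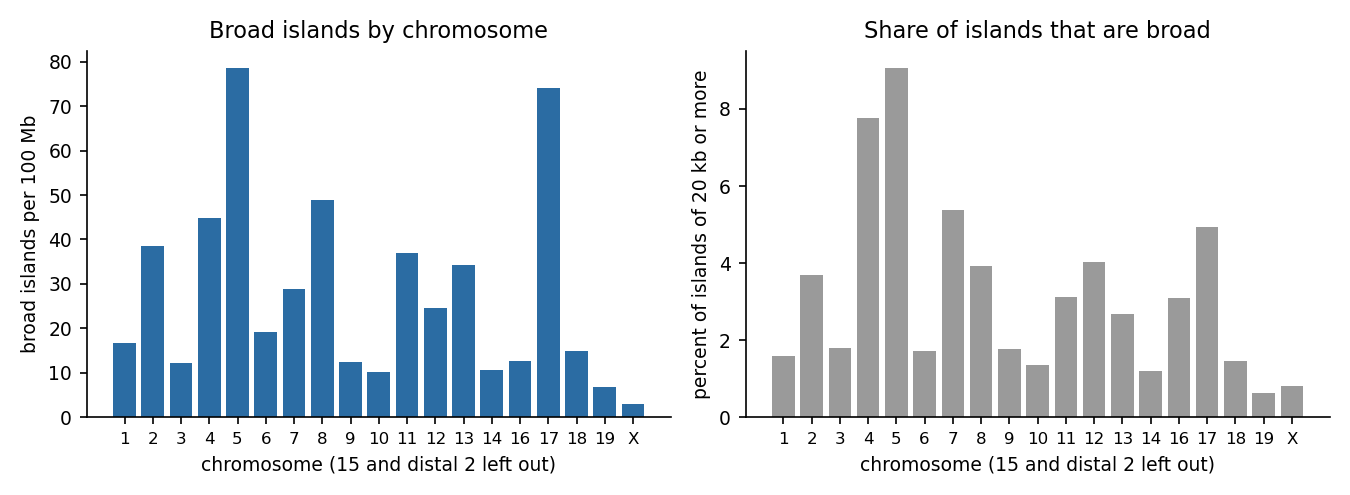
Broad islands per 100 Mb of chromosome (left, blue bars) and the percent of all islands of a chromosome that were broad (right, grey bars). Chromosomes 5 and 17 stood highest on the left, at 78.5 and 74.0 per 100 Mb, and X lowest, at 3.08.

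Chromosome 5 held 116 of the broad islands, and chromosomes 4 and 17 held 68 each, as the plot by chromosome shows. Chromosome 19 had 4 and chromosome X 5. Of the islands on chromosome 5, 9.06% were broad, against 0.632% on chromosome 19 and 0.805% on X. The broad islands lay often towards chromosome ends, with 32.3% in the 10% of the chromosome farthest from the centromere, against 16.7% of islands under 20 kb. In the 28 islands of at least 100 kb this share was 46.4%.

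MACS peaks in broad islands are described without a test, because they were called on the same library that set the island lengths. The 685 islands held 10669 peaks, 412 per Mb, against 254 per Mb in the 20623 shorter islands. Density had a minimum at middle lengths. It was 854 per Mb under 2 kb, 205 from 5 to under 10 kb and 215 from 10 to under 20 kb, then 293, 371, 491 and 632 per Mb in the 4 length classes of broad islands. Peaks covered 25.1% of the bases of broad islands and 41.4% in those of at least 100 kb. The median gap between peaks inside a broad island was 1436 bp. Single islands held 0 to 261 peaks with a median of 10, and 3 had none (on chromosomes 2, 8 and 9).

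The typical peak was of the same height in both. Median fold enrichment was 6.18 in broad and 6.17 in shorter islands, and 1.77% of the peaks in broad islands reached 10-fold, against 4.01%. The highest fold in an island, which is taken over more peaks in longer islands, had a median of 6.49 in shorter islands and of 7.34, 7.56, 8.93 and 10.31 in the 4 length classes of broad islands. Among broad islands with a gene, peaks were densest in the 38.0 kb island of Kazn on chromosome 4 (34 peaks, 0.895 per kb), followed by islands of Btbd3 (0.870) and Ptprt (0.802) on chromosome 2. Gm13173, Wwox, Zfp933, Gm10775, Tiam1, Ajap1 and Spock1 completed the 10 densest, down to 0.755 per kb. None of these 10 islands held a Setdb1 site. Of all 685 broad islands 3.07% held one, so 10 islands without a site are not set apart from the rest.

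**Figure D2:**
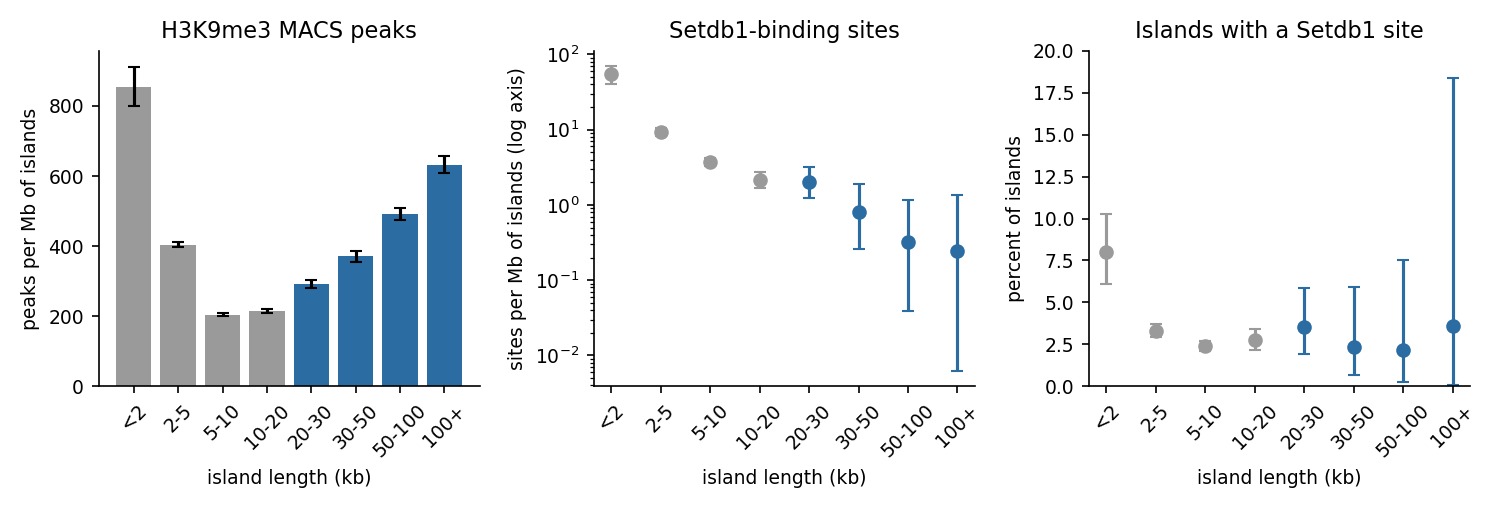
H3K9me3 MACS peaks per Mb (left), Setdb1 sites per Mb (middle, log axis) and percent of islands with a Setdb1 site (right) by island length, with exact 95% intervals. Grey marks islands under 20 kb and blue the broad islands, where peak density rose from 293 to 632 per Mb and the site rate went from 2.02 to 0.245 per Mb.

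Setdb1-binding sites were sparser in broad than in shorter islands per length, though not per island. There were 27 sites, 1.04 per Mb (0.687 to 1.52), against 631 sites or 4.89 per Mb (4.52 to 5.29) in shorter islands, a ratio of 0.213 (0.139 to 0.313). Against islands of 10 to 20 kb alone the ratio was 0.485 (0.299 to 0.764). Beside the genome the sites were not sparse. Broad islands made up 1.06% of the sequenced genome outside the left-out stretches and held 27 of its 1094 sites. Of the 1094, 436 lay outside islands. Counted by island, 21 of the 685 (3.07%, 1.91 to 4.65) had a site, and the background among shorter islands was 2.97%. The share of broad islands with a site thus lay at the background, while the rate per Mb was lower. The 28 islands of at least 100 kb, 4.08 Mb in all, held 1 site (0.245 per Mb, 0.00620 to 1.37).

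The 27 sites were placed unlike those of shorter islands. Linker codons lay within 2 kb of 19 of the 27 (70.4%, 49.8 to 86.2), and in all 19 cases inside the site itself. The 27 sites lay in 21 islands, 5 of which held more than 1, so the interval takes sites as more independent than they are. Within 2 kb the count was 21 of 631 sites in shorter islands (3.33%, 2.07 to 5.04), 17 of them with a linker inside the site, and 4 of 436 sites outside islands (0.917%), 1 of them inside. By the 2 kb distance, 0.505% of genome positions had a linker. Of the 27 summits, 10 lay in coding exons, 6 within 1 kb of a transcript start, 8 in introns and 3 outside genes. In shorter islands 25 of the 631 sites lay in coding exons and 343 outside genes. The start class took precedence and counted any annotated transcript. The Nphp4 summit, at 151877315, lay in a gene that starts at 151850815. The second Zfp316 summit, at 144016766, lay in a minus-strand gene that starts at 144031701. Linkers inside the 6 sites numbered 11 (Zfp2), 10 (Zfp930), 7 (Gm10988), 1 (Zfp316) and 0 (Nphp4 and Mid1). All 27 overlapped an H3K9me3 MACS peak, and 21 of them the peak of highest fold in their island. In the islands of Zfp316, Gm12586, Zfp182 and Zfp873 the sites of an island met a peak of the same fold. The 21 sites are therefore not 21 separate cases. Setdb1 fold enrichment had a median of 8.05 over the 27 sites, and of 7.57 in shorter islands.

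Linker codons were found in 42 of the 685 broad islands and in 300 of the 20623 shorter ones. Of the 18 broad islands with 5 or more, 13 had a Setdb1 site (72.2%, 46.5 to 90.3). Of the 24 with 1 to 4, 2 had one (8.33%), and of the 643 with none, 6 had one (0.933%, 0.343 to 2.02). The rates were 35.5, 1.19 and 0.295 sites per Mb. In islands of 10 to 20 kb the share with a site was 18.9% (9.44 to 31.97) with 5 or more linkers, and in islands under 10 kb 7.50% (2.80 to 15.6). With 5 or more linkers, the site share was therefore higher in broad islands than in either shorter class by non-overlapping intervals. Longer islands have more length in which a site can fall. Per Mb, the rate with 5 or more linkers was 35.5 (21.0 to 56.1) in broad islands. It was 12.9 (6.18 to 23.7) in islands of 10 to 20 kb and 14.4 (5.79 to 29.7) in those under 10 kb. By rate these intervals overlapped. Without a linker the share was 0.933% in broad islands, below the 2.98% (2.73 to 3.24) of islands under 10 kb, while its interval overlapped that of islands of 10 to 20 kb (2.36%, 1.80 to 3.03).

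The island with the most Setdb1 sites was the linker-rich 20.4 kb island on chromosome 11 (121705401 to 121725800), with 3 sites of 9.39-, 7.32- and 5.93-fold in the Gm12586 pseudogene, all at its finger array. The island of Zfp316 and Zfp12 (chr5:144000001-144029200) had the strongest pair. Their folds were 22.1 and 20.1, with 234 and 101 tags, under an H3K9me3 peak of 22.7-fold, the highest of any broad island. Zfp182 on X and Zfp873 on chromosome 10 had 2 sites each, all in coding exons. The island of Mid1, a ubiquitin ligase gene at the end of X, also had 2, of 5.74- and 4.10-fold, at windows with 18 and 14 CpG dinucleotides. Its background index, given below, was raised. Single strong sites were those of the island beside Ptprs (23.4-fold, 144 tags, the highest fold in broad islands), Nphp4 (13.4), Zfp146 and Zfp382 (13.4), Zfp110 (12.8), and 2610008E11Rik and Zfp606 (10.1 each). The sites of the Ptprs side, Nphp4 and Zfp110 had no linker within 2 kb. The remaining 5 without one lay in Mid1 (both sites), Sdk2, Trim24 and Tmem161b.

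**Figure D3:**
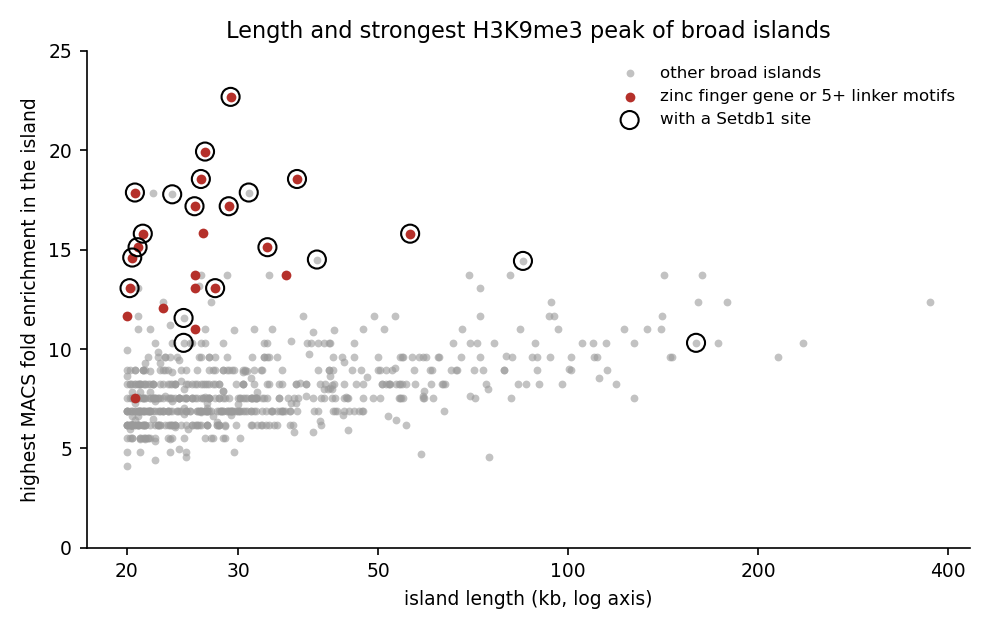
Length of each broad island (log axis, kb) against its highest H3K9me3 MACS fold enrichment, with islands of a zinc finger gene or at least 5 linker motifs in red and islands with a Setdb1 site ringed. Of the 40 islands that reached 12-fold, 19 are red and 18 ringed, and the 10 longest are grey and lie at 9.62- to 13.7-fold. The 3 islands without a MACS peak are not drawn.

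By gene content the broad islands fell into 4 groups, with zinc finger genes taken by symbol alone (Zfp, Zscan or Zkscan with a number). The 15 with a zinc finger gene ran from 20.2 to 37.2 kb and came to 0.391 Mb. They had 55.1% of their bases in MACS peaks, a median best fold of 15.1, and 13 Setdb1 sites in 10 of the 15 islands (66.7%, 38.4 to 88.2). In the 224 shorter islands with such a gene, 19 had a site (8.48%, 5.18 to 12.9). The 363 islands with another protein-coding gene reached 373.6 kb, had 26.4% of bases in peaks and a median best fold of 7.62, and 8 had a site (2.20%, 0.956 to 4.30). The 53 with non-coding genes or pseudogenes alone had 1 island with a site, that of Gm12586. The 254 with no annotated gene (37.1%, against 55.9% of shorter islands) had 2. Finger arrays without such a symbol fell outside the first group. Islands with 5 or more linkers were 11 of the 15, 3 of the 363, 1 of the 53 and 3 of the 254. Outside the first group, linkers lay inside sites of the Gm12586, AU041133, 2610008E11Rik and B230307C23Rik islands. They also lay inside the site with its summit at 22851781 on chromosome 17, in an island without a gene. Of the zinc finger islands 11 of 15 (73.3%) stood alone, with no other broad island within 100 kb, while 85 of the 363 (23.4%) and 44 of the 254 (17.3%) did. The zinc finger islands thus differed in grouping and peak height from those with another protein-coding gene or no gene (median best folds of 7.62 and 7.56). Their median lengths were close, at 25.6 kb against 28.4 and 26.5 kb, and length was the value used for selection. Islands with 5 or more linkers reached 56.2 kb.

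Of the 40 islands with a peak of at least 12-fold, 21 had neither a zinc finger gene nor 5 linkers. Most were on chromosomes 4 and 13, and they included Prdm16, Ajap1, Nphp4 and 2 islands at Spock1. Bcor, a corepressor gene on X, and Six2, a homeobox gene on chromosome 17, each had a short one with a peak of 13.7- and 13.1-fold and no Setdb1 site. Among the 645 islands under 12-fold, 3 had a zinc finger gene or 5 linkers and 3 had a Setdb1 site.

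Of 35839 annotated genes, 357 overlapped a broad island by at least 1 bp (0.996%) and 211 had their start in one (0.589%). These shares are the background for every gene list below. Among protein-coding genes it was 221 of 21390 (1.03%), and the share differed with gene length. Of those of at least 100 kb, 122 of 2301 overlapped (5.30%, 4.42 to 6.30), against 99 of 19089 shorter ones (0.519%, 0.422 to 0.631). Neighbouring genes can share an island, so the intervals take genes as more independent than they are.

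**Figure D4:**
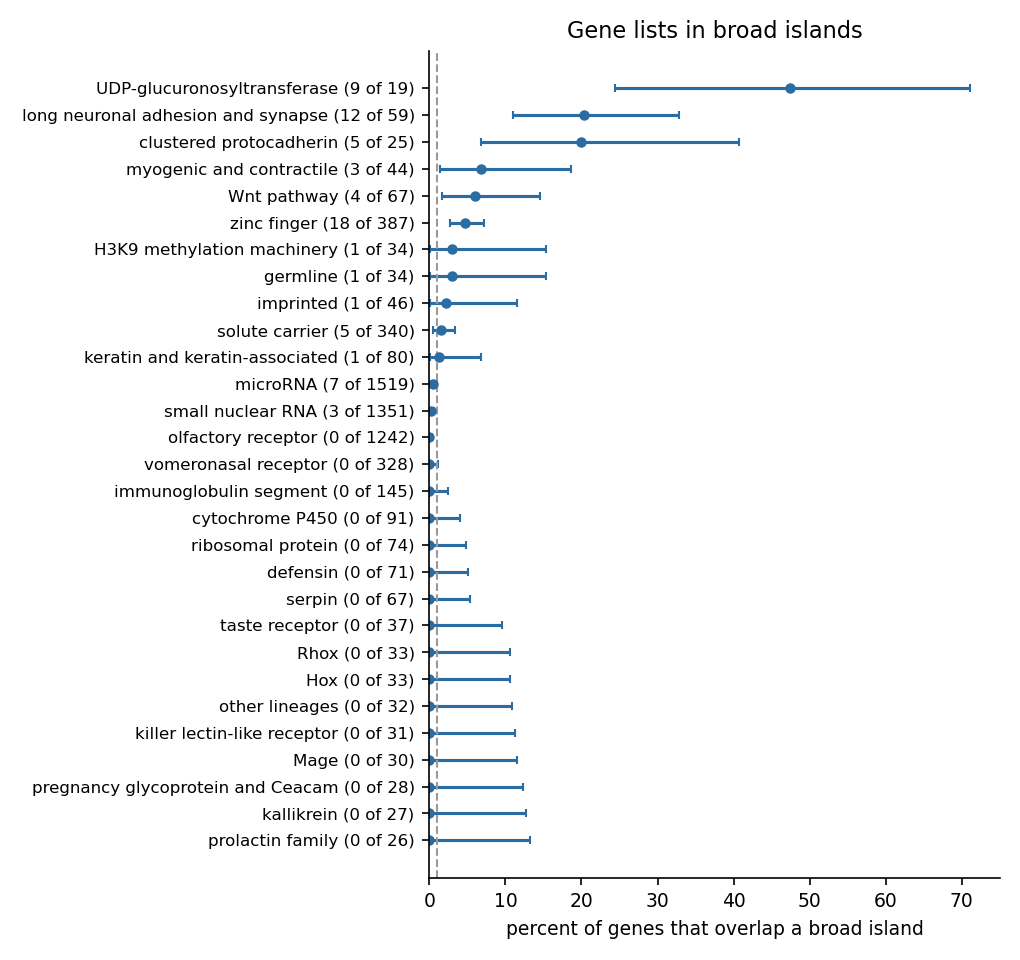
Percent of the genes of each list that overlap a broad island, with exact 95% intervals and the counts beside each name. The dashed line is the 0.996% of all genes, and the lists at the top are glucuronosyltransferases, neuronal adhesion genes and clustered protocadherins.

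Zinc finger genes (symbols Zfp, Zscan or Zkscan with a number) overlapped in 18 of 387 cases (4.65%, 2.78 to 7.25), and 6 had their start inside. Defined by sequence as genes with at least 5 linker motifs in exons, it was 15 of 201 (7.46%, 4.24 to 12.01). By bases covered the first were Zfp943 and Zfp942 on chromosome 17 (35.8 and 22.8 kb), Zfp521 (20.6 kb) and Zfp182 (20.3 kb). Zfp521 had no linker motif, and its island on chromosome 18 was the weakest of the group, at 7.56-fold. Genes of at least 100 kb made up 59.1% of the other protein-coding genes that overlapped and 2 of the 18 zinc finger genes.

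The position within genes differed as well. Of the 18 zinc finger genes, 13 had their 3′ end in a broad island and 6 their start. Of the 203 other protein-coding genes, 93 had the end and 81 the start inside, and 76 had neither. In 10 equal parts of the gene body, coverage of the zinc finger genes was 45.6% in the part at the start and 72.2% in the last, and it was 26.6% in the 10 kb before the start. Other genes under 100 kb had 63.4% and 65.9%, with 49.5% before the start, and those of at least 100 kb had 28.5% and 32.5%.

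**Figure D5:**
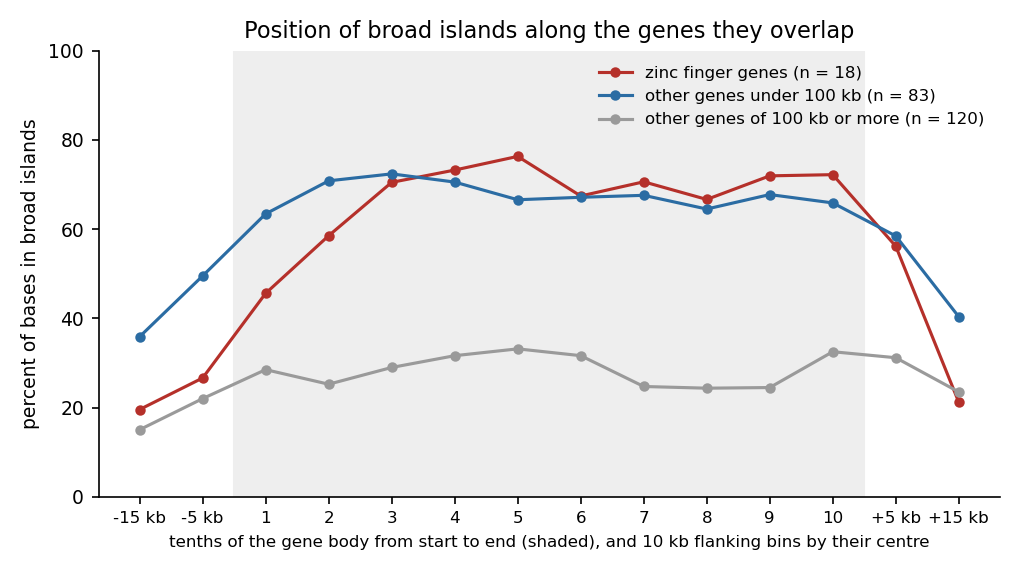
Percent of bases in broad islands along the protein-coding genes that overlap one, in 10 equal parts of the gene body (shaded) and 10 kb flanking bins, for 18 zinc finger genes (red), 83 other genes under 100 kb (blue) and 120 of at least 100 kb (grey). Red goes from 45.6% in the part at the start to 72.2% in the last, and grey stays between 24.4% and 33.2% within the gene body.

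Long adhesion and synapse genes of neurons held several of the longest covered stretches. Of 59 on the list, 12 overlapped (20.3%, 10.98 to 32.8), against 5.30% of protein-coding genes of at least 100 kb. The 2 sets differed in length, with medians of 752 and 166 kb, and overlap was more frequent in longer genes. The part of length in this difference was not tested. This list was drawn up with some of these islands known, so its share is no independent evidence. Ptprt had 586 kb in 17 islands, or 51.4% of the gene, and Tmem132d 525 kb in 9 (77.8%). Spock1 had 478 kb in 5 and Cdh13 446 kb in 8 (42.9%). Sdk1 had 339 kb in 10 islands and Csmd2 285 kb in 6. The least covered of the 12 were Dlgap1 and Odz2, with 20.0 kb each (2.35% and 1.63% of the gene), and Negr1, with 10.0 kb (1.33%). Outside the list, Wwox, an oxidoreductase gene across a fragile site, had 490 kb in 7 islands.

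Signalling and motor protein genes were among the other long genes. St6galnac3, which encodes a sialyltransferase, had 308 kb in 10 islands (59.2%). Tiam1, an activator of the GTPase Rac, had 304 kb in 6 (85.1%), and Prkce, the gene of protein kinase C epsilon, 230 kb in 5 (46.9%). Dnahc8, an axonemal dynein gene, and Kif6, a kinesin gene, lay on chromosome 17 with 228 kb (91.0%) and 217 kb (73.6%). Cdyl2, a chromodomain protein gene on chromosome 8, had 92.1% of its 159 kb in 2 islands. The nuclear receptor gene Esrrg had 204 kb in 6 islands, which is 33.7% of the gene, and Ntrk2, the BDNF receptor gene, 156 kb in 6 (47.6%). In all, 66 of the 221 protein-coding genes met 2 or more broad islands and 36 lay in them over their whole length.

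Non-coding genes differed by type. Of processed transcripts 64 of 2486 overlapped (2.57%, 1.99 to 3.28), and of long intergenic RNAs 13 of 1220 (1.07%, 0.569 to 1.82). By overlap, pseudogenes lay below the background of all genes, with 32 of 5090 (0.629%, 0.430 to 0.886). So did the short microRNA genes, with 7 of 1519 (0.461%, 0.185 to 0.947), and small nuclear RNA genes, with 3 of 1351 (0.222%, 0.0458 to 0.648). A short gene has less length to overlap, and median lengths were 0.648, 0.0910 and 0.107 kb, against 5.24 kb for all genes. By start the shares were again 0.629%, 0.461% and 0.222%, against 0.589% of all genes, and each interval held that value. By start they were therefore not set apart from the background.

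The Wnt list had 4 of 67 entries in broad islands (5.97%, 1.65 to 14.6), and 2 of these are separate entries for Fzd10, a Frizzled receptor. The others were Axin2 and Wnt5a, a ligand of the non-canonical branch, with 90.2% of its 22.7 kb covered. All 4 had their start inside. Of 44 myogenic and contractile genes, 3 overlapped (6.82%, 1.43 to 18.7) and none by its start. Ttn, the giant sarcomere protein gene, had 107 kb in 3 islands (38.5%), Myh4, a fast myosin heavy chain gene, 87.2% of its 22.6 kb in 1, and Dmd, the dystrophin gene, 20.4 kb of 2257 kb. Among other lists, Prdm16 was the 1 entry of 34 genes of H3K9 methylation and its relatives. Piwil1, which binds piRNAs in male germ cells, was the 1 entry of 34 germline genes. Kcnq1, with 61.4 kb in 2 islands, was the 1 entry of 46 imprinted genes. Of a short list of genes from the study, 11 lay on the chromosomes used, and Ttn and Zfp110 overlapped. That list was not complete, since Axin2 and Trim24, which the study also names, overlapped as well, Trim24 by 24.6 kb of its 95.5 kb.

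Gene clusters were covered unevenly. Of 25 clustered protocadherin genes 5 overlapped (20.0%, 6.83 to 40.7), namely Pcdhb17, Pcdhb18, Pcdhb19, Pcdhb20 and Pcdhgc5 on chromosome 18. The 4 Pcdhb genes are neighbours in 1 island of 21.6 kb, and Pcdhgc5 met a separate one of 30.6 kb. The highest share, 9 of 19 UDP-glucuronosyltransferase genes (47.4%, 24.4 to 71.1), came from 1 island at the shared 3′ end of the Ugt1a genes on chromosome 1. That island had 6 peaks in 58.4 kb, a best fold of 4.71 and a raised background index, given below. Of 1242 olfactory receptor genes none overlapped (upper bound 0.297%), and of 328 vomeronasal receptor genes none did (upper bound 1.12%). None of 33 Hox, 74 ribosomal protein, 91 cytochrome P450, 67 serpin and 71 defensin genes overlapped either (upper bounds from 3.97% to 10.6%). Nor did any of 32 regulators of other lineages (upper bound 10.9%), of which 15 overlapped a shorter island. Among these lists without overlap, only the olfactory bound lay below the 0.996% of all genes. The others were therefore not set apart from the background.

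Base composition was taken from the genome and not used by the rule. Broad islands had 45.9% GC, shorter islands 43.5% and the genome 41.7%. Within broad islands it was 44.8% under 30 kb and 47.9% from 100 kb on, while the 15 zinc finger islands had 42.2%. The ratio of observed to expected CpG was 0.211 in broad and 0.204 in shorter islands, with 0.191 in the genome. Protein-coding gene starts came to 3.36 per Mb in broad islands, 8.00 in shorter ones and 8.76 in the genome. In broad islands linkers came to 8.42 per Mb, in shorter ones to 11.2 and in the genome to 2.57.

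A background index was read from each peak as its tags per fold and kb. It was not counted in the input library, so a raised value can reflect more input reads but does not show them. The median of this index over islands was 7.42 in broad and 7.50 in shorter islands. In 14 broad islands it was above 10. The highest, 123, belonged to a 74.8 kb island of Sfi1 and Drg1 near the centromere of chromosome 11, whose best fold was 4.59 in spite of a peak of 5949 tags. Mid1 followed at 18.77 and the Ugt1a island at 18.02, and 4 islands of Dnahc8 on chromosome 17 lay between 10.9 and 12.1. Without the 14, the broad islands had 0.989 Setdb1 sites and 415 MACS peaks per Mb. The part of GC content and of this background index in island length was not tested.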

How the data were processed

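Chromatin immunoprecipitation and sequencing libraries of C2C12 myoblasts were aligned by the authors to mm9 with Bowtie 0.12.7, keeping unique reads. Library depths are not given in the sources used here. MACS 1.4 peaks were called over input, with a p-value limit of 10e-3 for H3K9me3. Setdb1 sites passed stricter limits of the authors, among them a false discovery rate under 1% and 4-fold enrichment. The study considers its number of Setdb1 sites an underestimate, since read depth had not reached a plateau. An island without a Setdb1 site is thus one without a listed site. SICER 0.0.1 islands were called with a window of 200 bp, a gap of 1000 bp and an e-value of 0.01. The use of input by SICER is not stated. The deposited tag counts are reads per peak, and the deposited fold enrichment is a ratio over the MACS background. The deposited score is the MACS p-value on a negative log10 scale, times 10, and was used for one alternative. The deposited false discovery rate in percent was not used as a filter. SICER islands were deposited as positions alone, in base pairs.

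Members and gene lists were chosen with earlier results of these data known. Regions were joined by overlap of at least 1 bp. Genes came from GENCODE (release M1), whose NCBIM37 chromosome lengths equal mm9, with chromosome Y left out. No repeat annotation was used. Linker codons were searched on both strands of that genome, and Setdb1 summits were assigned first to transcript starts within 1 kb, then to coding exons, other exons, introns or intergenic sequence. Named were the 10 longest islands, the 10 with most Setdb1 sites, the 10 of densest MACS peaks with a gene, up to 4 genes per list, a short list of genes from the study, and the 5 longest runs. Wwox, Sdk1, Csmd2, Dlgap1, Odz2, Negr1, St6galnac3, Prkce, Kif6, Cdyl2, Esrrg, Ntrk2, Bcor, Six2, Sfi1, Drg1, Dnahc8, Trim24, Tmem161b and single genes of other islands were named after their values were seen. Grouping by linkers was also chosen then. Python 3.11.15, pandas 2.3.3, NumPy 2.4.6 and SciPy 1.17.1 were used, and the interval functions were checked on simulated data.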

Additional observations from a re-analysis of the deposited data

How the results depend on the processing

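No paired analysis was possible because no group had more than 1 library. Of 37 alternatives, 17 stayed inside the 95% interval of the value reported. With islands of at least 30000 bp there were 0.486 Setdb1 sites per Mb, 480 MACS peaks per Mb, 0.583% of all genes, 1.29% of zinc finger genes and 31.4% of islands without a gene. With 15000 bp there were 369 peaks per Mb, 1.498% of genes, 8.79% of zinc finger genes and 42.1% of islands without a gene. Joining islands less than 5000 bp apart gave 294 peaks per Mb, 2.28% of genes and 9.56% of zinc finger genes. Keeping chromosome 15 and distal chromosome 2 gave 440 peaks per Mb and 1.18% of genes. Peaks with p below 1e-05 came to 211 per Mb and Setdb1 sites of at least 8-fold to 0.618 per Mb. At least 50% of the gene body was covered in 0.580% of genes, and 44.8% of islands had no protein-coding gene. In alternatives chosen after seeing the data, genes with 5 or more linker motifs gave 7.46%. Islands with no zinc finger gene by name and fewer than 5 linkers gave 0.316 Setdb1 sites per Mb. At limits of 15000, 20000 and 30000 bp, broad islands kept fewer Setdb1 sites and more peaks per Mb than the islands below the limit. Site rates were 1.13 against 5.17, 1.04 against 4.89, and 0.486 against 4.70. The cause of each shift was not tested. The planned definition of zinc finger genes by a protein table was not run, because that table was not used here. With 27 sites in all, rates of subsets rest on few counts.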
